A study of Mus musculus with 26 samples.

Results

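The comparison described here set 7 conditional Hic1 knockout forelimb libraries against 5 conditional heterozygote libraries, 12 of the 26 libraries of the study, in both of which the Cre recombinase was present. The samples were chosen by their labels and not by any measured value. All 26 libraries were polyA RNA from mouse embryonic forelimbs at E13.5, and they came from 2 strategies for removing Hic1, a conventional one and a conditional one. The knockout libraries carried the genotype PxCre; Hic1 f/f, with a floxed allele on both chromosomes, and the heterozygote libraries carried PxCre; Hic1 f/+, with 1 floxed allele and 1 unfloxed allele. A reference group of 5 control libraries, Hic1 f/+ without Cre, which the labels call wild type, shared the floxed allele with both. The conventional strategy gave 3 libraries each of Hic1 +/+, Hic1 +/- and Hic1 -/-.

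Every knockout and heterozygote library therefore carried Cre, so the contrast held Cre constant and varied the number of floxed, and recombined, Hic1 alleles. Those 2 quantities, and any sequence linked to the second floxed allele, cannot be told apart in it. The Cre was driven by Prrx1, which acts in limb bud mesenchyme, so cells of other lineages in the forelimb would keep both Hic1 alleles. The labels do not say whether a library was 1 embryo or a pool, or which embryos were littermates, nor which part of Hic1 the floxed allele removes. The p-values below measure only the spread between these libraries, which may be partly technical.

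HIC1 is a transcriptional repressor with an amino-terminal BTB domain and carboxy-terminal zinc fingers that read a short DNA word with the core GGGCA. It recruits corepressor complexes to the genes it binds, and in the mouse it marks mesenchymal progenitors of several tissues. In a bulk library of the whole forelimb, fewer cells of a type and less RNA per cell of that type cannot be told apart.

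Expression was measured as FPKM, the fragments of a gene divided by its transcript length and by the mapped fragments of the library. The limma test was run on log2(FPKM + 1) for the 12918 of 24340 listed genes that averaged 1 FPKM or more over the conditional table, and genes with an adjusted p (Benjamini-Hochberg) under 0.05 are named called. On that scale a log2 fold change is smaller than the true one where FPKM is low. FPKM summed to between 436559 and 497121 in the 12 libraries, with 16677 to 17194 genes above 0. The number of reads behind the values is unknown. Each library's median correlation with the other conditional libraries was between 0.975 and 0.984, so none stood apart on this measure. The markers of the labelled tissue were present in both groups. Prrx1 averaged 144 FPKM in heterozygotes and 139 in knockouts, Pdgfra 104 and 102, Twist1 174 and 175, and Tbx5, the forelimb T-box factor, 58.1 and 51.5. Tbx4 and Pitx1, which mark hindlimb, averaged 6.64 and 1.54 FPKM in heterozygotes.

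Between knockout and heterozygote forelimbs, 10 of the 12918 genes were called (0.0774%), 7 higher in the knockout (0.0542%) and 3 lower (0.0232%), and Hic1 itself was 1 of the 3. The higher genes were Sst, Pcp4, AA465934, Slc14a2, C1qtnf7, Fam196b and Smg6, and the lower ones were Hic1, Slfn9 and Frzb. At an unadjusted p under 0.05 the limma fit held 598 genes (4.63%), 354 higher (2.74%) and 244 lower (1.89%). The median log2 fold change of all genes was 0.0023, the median absolute change was 0.0536, and 95% of genes lay within 0.209. The number of calls depended on single libraries. It was 16 without knockout 4, 6 without knockout 2, knockout 7 or heterozygote 4 left out in turn, and 5 without heterozygote 1. The 598 genes became 1196 without knockout 4, 928 without heterozygote 2 and 2426 with array weights.

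**Figure D1:**
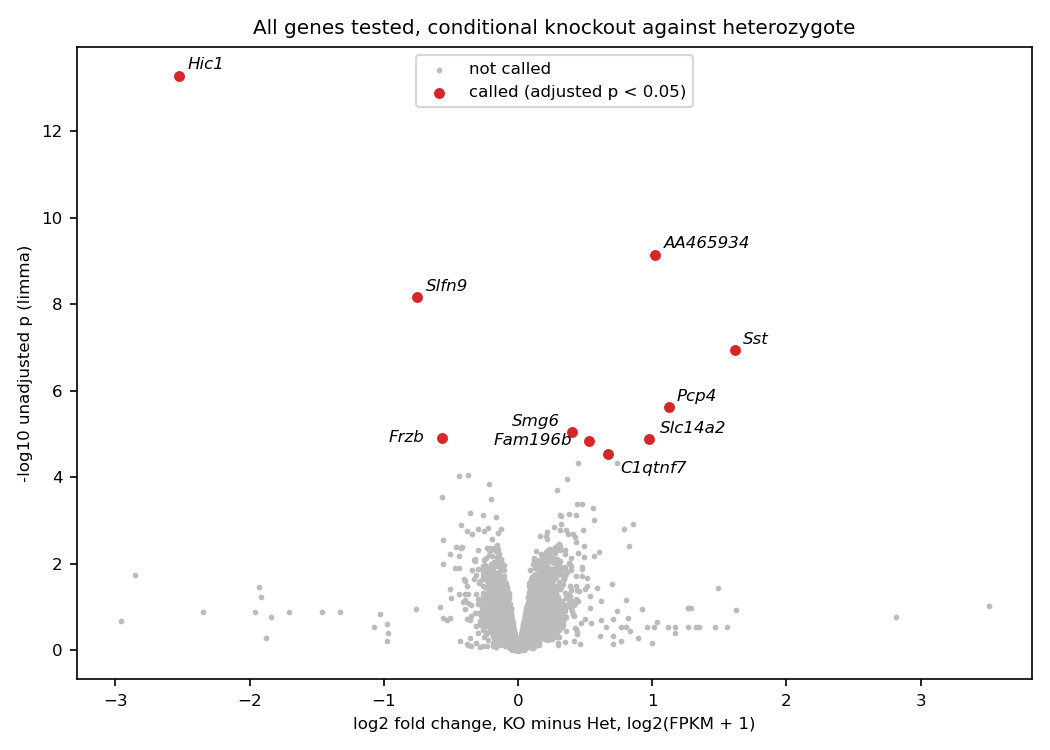
Each point is 1 of the 12918 genes tested, with the log2 fold change (knockout minus heterozygote, log2(FPKM + 1)) on the horizontal axis and -log10 of the unadjusted limma p on the vertical axis. The 10 called genes are red and named, with Hic1 at the far left and 7 genes on the right; the grey points at large changes did not pass the test.

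Column headers of the deposited table carry a pair of letters after the genotype and number whose meaning is not stated. Among the knockouts, 2 libraries carry NZ and 5 carry OB; among the heterozygotes, 1 carries NZ, 1 OA and 3 OB. The letters moved with the largest axis of variation between libraries. The first principal component held 23.1% of the variance over the 17 conditional libraries, and heterozygotes 3, 4 and 5 (OB) scored 9.8 to 24.6 on it. Heterozygotes 1 and 2 scored -11.5 and -10.7. Among OB knockouts, knockout 4 scored 19.8 and knockout 7 scored 8.9, and the other 3 were at or below -2.7. Knockouts 1 and 2 (NZ) scored -5.3 and -11.2. Within OB the heterozygotes lay mostly above the knockouts, so this axis also ran partly along the contrast. All 10 called genes had the same sign within the OB libraries and within the NZ libraries. The NZ libraries hold 2 knockouts and 1 heterozygote and so give values without a test. Both sets are part of the libraries that made the calls. In 9 of the 10 genes the knockouts and heterozygotes did not overlap, which fixed the sign in any part of them. The shared sign is therefore no support for the calls. With the letters as a term in the limma fit, Smg6 and C1qtnf7 were no longer called (adjusted p = 0.0584 and 0.0905).

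Promoter sequences of 4 called genes outside the Hic1 chromosome are shown first, because these genes are not linked to the targeted locus. Each runs from 250 bases before to 50 bases after the RefSeq start (GRCm38.p6), read 5′ to 3′ on the gene's strand, at chr16:23890795-23891094 (minus strand) for Sst, chr16:96467356-96467655 (plus) for Pcp4, chr5:43515319-43515618 (plus) for C1qtnf7 and chr2:80447347-80447646 (minus) for Frzb. Capitals mark GGGCA, the HIC1 core, on either strand (TGCCC when read on the reverse strand) in Pcp4, C1qtnf7 and Frzb. In Sst they mark TGACGTCA, the cAMP response element, which is the same on both strands.
Sst: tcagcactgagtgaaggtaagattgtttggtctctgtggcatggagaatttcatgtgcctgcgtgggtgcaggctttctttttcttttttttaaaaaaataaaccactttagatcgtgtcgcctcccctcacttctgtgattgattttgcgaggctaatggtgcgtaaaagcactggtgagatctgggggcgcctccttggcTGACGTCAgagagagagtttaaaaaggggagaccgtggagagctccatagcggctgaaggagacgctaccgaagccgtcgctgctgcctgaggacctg
Pcp4: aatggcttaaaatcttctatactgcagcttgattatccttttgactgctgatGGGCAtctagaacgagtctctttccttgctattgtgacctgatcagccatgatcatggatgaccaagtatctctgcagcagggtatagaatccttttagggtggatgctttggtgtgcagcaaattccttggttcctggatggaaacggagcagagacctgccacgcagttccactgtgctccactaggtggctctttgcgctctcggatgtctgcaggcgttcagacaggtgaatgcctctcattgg
C1qtnf7: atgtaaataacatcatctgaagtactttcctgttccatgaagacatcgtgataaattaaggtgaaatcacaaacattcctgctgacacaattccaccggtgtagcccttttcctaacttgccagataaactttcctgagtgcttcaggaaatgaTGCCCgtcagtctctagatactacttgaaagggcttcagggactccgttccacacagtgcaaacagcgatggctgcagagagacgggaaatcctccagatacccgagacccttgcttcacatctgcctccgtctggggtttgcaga
Frzb: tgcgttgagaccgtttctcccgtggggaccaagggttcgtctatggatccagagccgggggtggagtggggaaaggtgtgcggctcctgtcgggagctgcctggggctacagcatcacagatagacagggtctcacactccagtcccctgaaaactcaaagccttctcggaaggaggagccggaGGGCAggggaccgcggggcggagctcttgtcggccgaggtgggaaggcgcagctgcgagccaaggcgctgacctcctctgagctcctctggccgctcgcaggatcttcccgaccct
The GGGCA word stood 198 bases before the start in Pcp4, 96 before it in C1qtnf7 and 66 before it in Frzb, and it was not in the Sst window. It is a common word, found in 17574 of the 32851 promoters of the same length (53.5%). Of the 8 called genes with a listed promoter it was in 5, those of Pcp4, C1qtnf7, Frzb, Slfn9 and Smg6. The longer HIC1 word GGGCANCC was in none of the 8 and in 5.46% of all promoters. TGACGTCA was in the Sst window, 48 bases before the start, and in 1.79% of all promoters. These matches describe letters in a window and not binding.

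Hic1, on chromosome 11 at 75164565 to 75169519 (minus strand, mm10), checks the labels. The heterozygotes stood at 34.9, 31.4, 28.0, 32.4 and 32.8 FPKM and the controls at 52.4, 65.8, 58.0, 65.2 and 61.4. The knockouts ran from 2.76 to 6.16 with a median of 4.91. Every knockout library was below every heterozygote, and every heterozygote was below every control, and Hic1 followed the label in all 17 libraries. The knockout mean of 4.82 ± 1.13 (SD, n = 7) was 15.1% of the heterozygote mean of 31.9 ± 2.52 (n = 5). The log2 fold change was -2.52 (SE 0.12, adjusted p = 6.84e-10). The fold change of Het minus control was -0.90 (adjusted p = 0.0209), and the difference between the 2 steps, -1.62 on the log2 scale, was called as well (adjusted p = 0.00954). Equal losses in FPKM give a larger second step on the log2 scale, so the design fixed the direction of this difference. The means were 60.6 FPKM in controls, 31.9 in heterozygotes and 4.82 in knockouts. The call does not show that the second allele mattered more for the Hic1 level. In the conventional table, normalised apart from this one, Hic1 averaged 33.5 ± 3.42 FPKM in Hic1 +/- and 1.70 ± 0.748 in Hic1 -/- (n = 3 each). Neither strategy left it at 0.

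**Figure D2:**
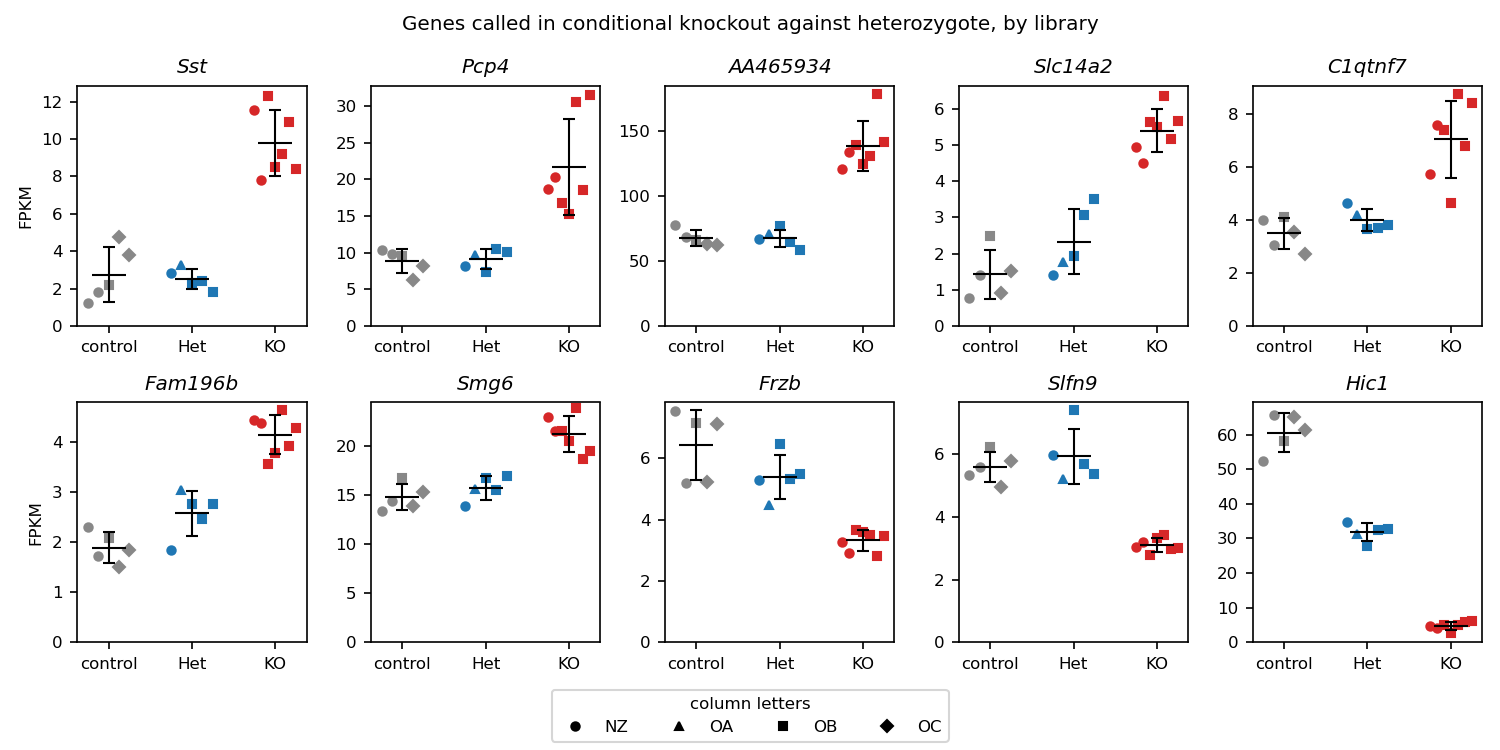
FPKM (vertical axis, from 0, a separate scale for each gene) of the 10 called genes in each conditional library, grouped as control, heterozygote (Het) and knockout (KO). Points are libraries, their shapes give the column letters, and the horizontal bars with whiskers are the mean ± SD; the knockout points lie apart from the heterozygotes in 9 genes, with C1qtnf7 the exception.

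Sst and Pcp4, both on chromosome 16, were higher in every knockout. Sst encodes somatostatin, a secreted peptide that inhibits hormone release and is made by neurons and endocrine cells. It stood at 2.82, 3.27, 2.32, 2.39 and 1.80 FPKM in the heterozygotes and at 1.22, 1.83, 2.20, 4.73 and 3.78 in the controls, and at 7.79 to 12.3, median 9.20, in the knockouts. The lowest knockout was above the highest of the other 10 libraries, and the controls and heterozygotes overlapped. The knockout mean was 3.89-fold the heterozygote mean, 9.81 ± 1.76 against 2.52 ± 0.552 FPKM, or 1.62 on the log2 scale (SE 0.19, adjusted p = 3.79e-04).

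Pcp4 encodes a small calmodulin-binding protein abundant in Purkinje cells. Its heterozygotes stood at 8.13, 9.65, 7.40, 10.5 and 10.1 FPKM and its controls at 10.4, 9.88, 9.49, 6.30 and 8.17. The knockouts ran from 15.3 to 31.5 with a median of 18.7. All knockouts were above all other libraries, with knockouts 5 and 7 near 31 and the other 5 between 15.3 and 20.4. The mean rose from 9.15 ± 1.32 to 21.7 ± 6.60 FPKM, giving a log2 change of 1.12 (SE 0.16, adjusted p = 0.00616). Within the OB libraries alone, an alternative chosen after seeing the data, the change was 1.14 with adjusted p = 0.526.

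Slc14a2 and C1qtnf7 were the other higher genes outside chromosome 11. Slc14a2, on chromosome 18, encodes a urea transporter of the kidney. The heterozygotes were 1.40, 1.76, 1.94, 3.05 and 3.50 FPKM, its controls 0.780, 1.41, 2.50, 0.916 and 1.52, and its knockouts 4.49 to 6.35 with a median of 5.49. Knockouts were above all other libraries, and the heterozygotes and controls overlapped. The mean rose from 2.33 ± 0.898 to 5.39 ± 0.592 FPKM (log2 fold change 0.98, SE 0.16, adjusted p = 0.0208). The call was lost when knockout 3, 5 or 7 or heterozygote 1, 2 or 3 was left out, with adjusted p up to 0.0865, and with a pseudocount of 0.1.

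C1qtnf7 encodes a secreted relative of complement C1q and adiponectin. Heterozygotes stood at 4.64, 4.17, 3.64, 3.68 and 3.82 FPKM, controls at 4.00, 3.04, 4.11, 3.54 and 2.72, and knockouts at 4.63 to 8.74 with a median of 7.37. The lowest knockout, knockout 4, lay just under heterozygote 1, so the groups touched. The mean went from 3.99 ± 0.416 to 7.03 ± 1.46 FPKM (log2 fold change 0.67, SE 0.12, adjusted p = 0.0382). Leaving out any of 10 of the 12 libraries ended the call, with adjusted p up to 0.163. An antisense transcript, Gm15866, overlaps the gene, and although the library kit was stranded, the strand setting used in counting is not given in the sources used here.

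Frzb was the called gene that fell outside chromosome 11. It encodes a secreted frizzled-related protein that binds Wnt ligands outside the cell and is a marker of early cartilage. Its heterozygotes stood at 5.27, 4.46, 6.47, 5.31 and 5.48 FPKM, its controls at 7.52, 5.19, 7.14, 5.22 and 7.11, and its knockouts at 2.81 to 3.66 with a median of 3.46. All knockouts were below all heterozygotes and all controls, which overlapped each other. The mean dropped from 5.40 ± 0.719 to 3.32 ± 0.334 FPKM (log2 fold change -0.56, SE 0.094, adjusted p = 0.0208). Leaving out 1 library ended the call in 6 of 12 cases, knockouts 2 and 7 and heterozygotes 1, 3, 4 and 5, with adjusted p up to 0.0804.

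The other 4 called genes lay on chromosome 11 with Hic1, a chromosome that held 8.16% of the genes tested. AA465934, a processed transcript at chr11:83291699-83294632 (plus strand), was the most abundant of the 10 in the knockouts. It stood at 66.5, 70.8, 76.6, 64.5 and 58.7 FPKM in the heterozygotes and 77.5, 68.1, 66.4, 63.0 and 62.2 in the controls, and at 121 to 179, median 134, in the knockouts. The means of controls and heterozygotes were both 67.4 FPKM, and the knockout mean was 139 ± 19.2, 2.06-fold the heterozygote mean. The log2 fold change was 1.02 (SE 0.086, adjusted p = 4.67e-06). The fold change of Het minus control was -0.0012, and the difference between the steps was 1.02 (adjusted p = 0.0274). The small nucleolar RNA Snord7 lies inside it.

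Slfn9 at chr11:82978390-82991830 (minus strand) belongs to the Schlafen family, whose members are close in sequence, so reads may be divided among them. Heterozygotes stood at 5.99, 5.20, 7.42, 5.71 and 5.37 FPKM, controls at 5.34, 5.60, 6.25, 4.97 and 5.78, and knockouts at 2.78 to 3.44 with a median of 3.03. Every knockout was below every other library. The mean dropped to 52.4% of the heterozygote mean, 3.11 ± 0.226 against 5.94 ± 0.885 FPKM (log2 fold change -0.75, SE 0.073, adjusted p = 2.98e-05), and the step difference was -0.82 (adjusted p = 0.0382). Of its relatives, Slfn8 was 0.172 FPKM in heterozygotes and 0.144 in knockouts, Slfn3 0.891 and 0.740, and Slfn5 0.650 and 0.909, and none of the 3 passed the filter on low values. Slfn2 was 1.18 and 1.45 (adjusted p = 0.930).

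Smg6 and Fam196b were the remaining chromosome 11 genes. Smg6, an endonuclease of nonsense-mediated decay, lies at chr11:74925823-75164448 on the plus strand and ends 116 bases from the end of Hic1, which is read towards it. It stood at 13.9, 15.6, 16.7, 15.6 and 17.0 FPKM in heterozygotes and 13.4, 14.5, 16.8, 13.9 and 15.3 in controls, and at 18.7 to 23.9, median 21.5, in knockouts. The knockouts were above all other libraries, and the mean rose from 15.8 ± 1.21 to 21.2 ± 1.84 FPKM (log2 fold change 0.41, SE 0.066, adjusted p = 0.0193). The call was lost without knockout 2, heterozygote 1 or heterozygote 4 (adjusted p up to 0.0732) and with the column letters as a term. The difference was 0.32 within the OB libraries and 0.64 within the NZ libraries.

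Fam196b, at chr11:34314822-34422640 (plus strand), encodes a protein of inhibitory synapses and lies inside Dock2 on the opposite strand. Its heterozygotes were 1.85, 3.03, 2.76, 2.45 and 2.76 FPKM, its controls 2.30, 1.72, 2.08, 1.499 and 1.84, and its knockouts 3.56 to 4.62 with a median of 4.27. Knockouts were above all other libraries, and the mean rose from 2.57 ± 0.454 to 4.13 ± 0.388 FPKM (log2 fold change 0.53, SE 0.090, adjusted p = 0.0208). Dock2 itself was 0.691 FPKM in heterozygotes and 0.728 in knockouts. In 7 of 12 cases, knockouts 1, 2, 5 and 7 and heterozygotes 1, 4 and 5, leaving out 1 library ended the call of Fam196b (adjusted p up to 0.0954).

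Set beside the controls, 9 of the 10 called genes had control and heterozygote libraries that overlapped, and Hic1 was the exception. Knockout minus control, which called 34 genes of 12918 (0.263%), was called for all 10, with log2 fold changes of 1.60 for Sst, 1.17 for Pcp4, 1.02 for AA465934, 1.44 for Slc14a2, 0.83 for C1qtnf7 and Fam196b, 0.49 for Smg6, -0.77 for Frzb, -0.68 for Slfn9 and -3.43 for Hic1. Heterozygote minus control called 1 gene of 12918 (0.00774%), Hic1. It ran from -0.21 (Frzb) to 0.46 (Slc14a2) for the 9 genes other than Hic1, with adjusted p of 0.747 or above. These 3 contrasts share libraries, so their values are given side by side and are not separate evidence. A test of the difference between the steps, knockout minus heterozygote against heterozygote minus control, called 3 genes of 12918 (0.0232%), Hic1, AA465934 and Slfn9. The steps are not matched, since the first adds Cre and no floxed allele and the second adds a floxed allele and no Cre. All 3 genes lie on chromosome 11, and sequence linked to the second floxed allele cannot be told apart from loss of Hic1 in the second step. With the column letters as a term the test called none, with 585 genes at an unadjusted limma p under 0.05. Leaving out heterozygote 1, 4 or 5 also left none called, and without control 1 or 2 or knockout 2, 3 or 7 left out in turn the count was 1.

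The conventional knockout sets knockout against heterozygote in other libraries, without Cre and without floxed alleles. Its loss of Hic1 is not limited to cells with Prrx1-driven Cre, so it is not a replicate of the conditional contrast. It called 1 gene of 12717 (0.00786%), which was Hic1, and held 583 genes (4.58%) at an unadjusted p under 0.05 by the same test, fitted without the replicate block. With the block it also called 1 and held 1186. It held 216 without heterozygote 2, 1033 without knockout 1 and 1551 without knockout 3. The conventional column headers carry the letters CH for replicate 1 of each genotype and CL for the other replicates, and their meaning is not stated. Conventional knockout 1 stood apart, with a median correlation of 0.869 with the other conventional libraries against 0.970 to 0.982 for the rest, so values are given with and without it. Over the 12557 genes tested in both tables, 40.8% had the same sign of knockout minus heterozygote in the 2 strategies, and 45% without that library. Of the 9 called genes other than Hic1, 9 had the same sign in the conventional table and 7 without that library, and 0 were called there.

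The conventional values of Sst, Pcp4, Slc14a2 and Smg6 separated too. Conventional Sst was 2.73, 2.69 and 3.28 FPKM in Hic1 +/- and 7.53, 6.04 and 6.20 in Hic1 -/-, which is 0.96 on the log2 scale (SE 0.16, adjusted p = 0.608), and 0.87 without knockout 1. Conventional Pcp4 was 6.88, 6.44 and 8.93 against 13.2, 13.7 and 13.7 (0.80, SE 0.13, adjusted p = 0.608), and 0.82 without that library. Conventional Slc14a2 was 3.26, 1.92 and 2.26 against 8.56, 5.07 and 4.83 (1.02, SE 0.23, adjusted p = 0.697), and 0.79 without it. Conventional Smg6 was 21.7, 18.4 and 19.9 against 27.4, 22.3 and 22.2 (0.25, SE 0.12, adjusted p = 0.697), and 0.15 without it. For each of these 4, every Hic1 -/- library was above every Hic1 +/- and Hic1 +/+ library, as in 319 of all 12717 genes (2.51%), and the limma test over all genes called none of them. At an unadjusted p under 0.05 the same test held 3 of the 9 genes (Sst, Pcp4 and Slc14a2), where it held 4.58% of all genes. Without knockout 1 it held 5 of the 9 and 8.12% of all genes. The conventional values above come from the fit without the replicate block. With the block the adjusted p of each of the 4 genes was 0.426, and their log2 fold changes were the same.

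The direction of AA465934 and Slfn9 in the conventional table rested on knockout 1. Conventional AA465934 was 6.36, 4.52 and 6.83 FPKM in Hic1 +/- and 12.1, 5.31 and 5.02 in Hic1 -/-, with a log2 fold change of 0.21 that became -0.15 without knockout 1. Its levels in all 9 conventional libraries, 4.13 to 12.1 FPKM, lay below the lowest conditional library at 58.7, with the caveat that the tables were deposited separately and a shared scaling is not stated. Conventional Slfn9 spread widely within each genotype, at 1.74, 7.50 and 6.68 FPKM in Hic1 +/+, 1.80, 4.10 and 6.33 in Hic1 +/- and 0.373, 1.77 and 8.03 in Hic1 -/-. Its log2 fold change was -0.54 and became 0.087 without knockout 1. The other 3 had conventional log2 fold changes of 0.25 (C1qtnf7), 0.17 (Fam196b) and -0.11 (Frzb), and 0.43, 0.33 and -0.10 without that library, none of them called.

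**Figure D3:**
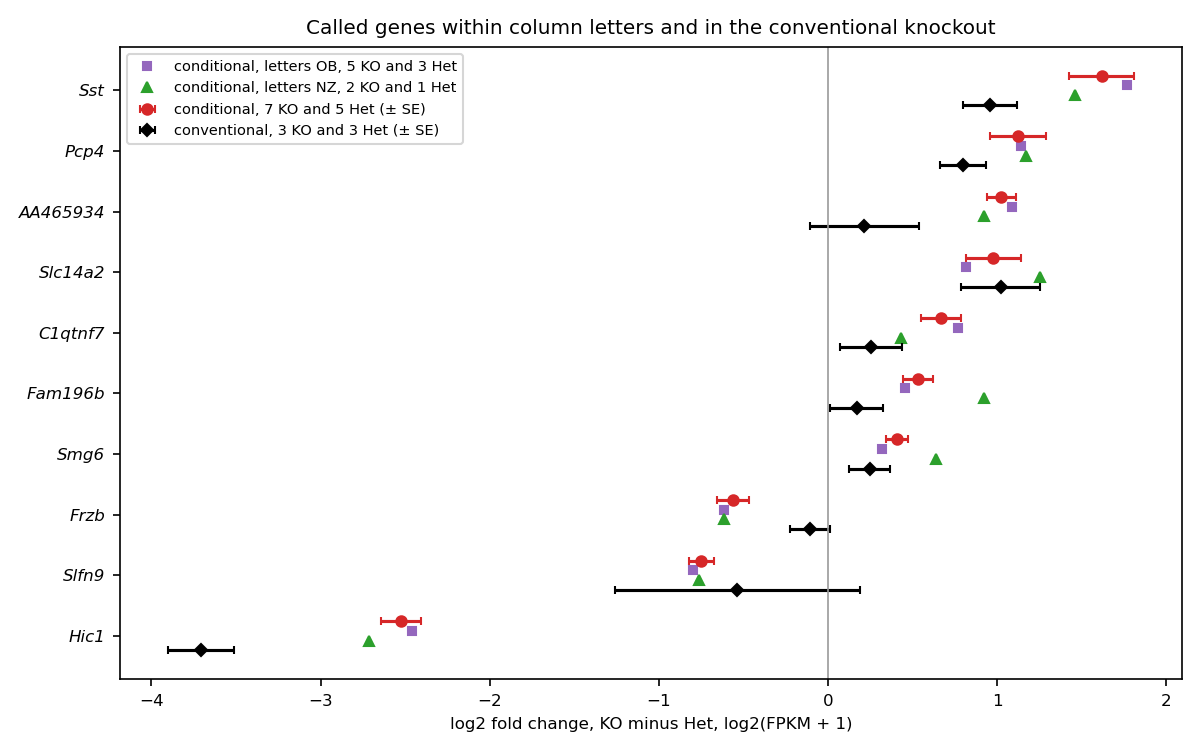
Log2 fold change of knockout minus heterozygote on the log2(FPKM + 1) scale (horizontal axis) for each called gene (vertical axis), in all conditional libraries (circles, ± SE), within the letters OB (squares) and NZ (triangles), and in the conventional libraries (diamonds, ± SE). The OB and NZ marks stay on the side of the full comparison for all 10 genes, which was fixed for the 9 whose groups do not overlap. The conventional bars of AA465934 and Slfn9 cross 0.

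The genes nearest to Hic1 on chromosome 11 were counted by distance. Within 2 Mb of Hic1, 8 of 46 tested genes had an unadjusted p under 0.05 (17.4%), against 5.39% between 2 and 10 Mb, 3.45% between 10 and 20 Mb, 5.56% beyond, and 4.53% on the other chromosomes, and whether these shares differ was not tested. Of the 8, 7 were higher and 1 lower, and Smg6 alone was called (1 of 46). Tlcd2, 0.30 Mb away, a membrane protein gene, was 5.80 to 8.90 FPKM in heterozygotes and 8.85 to 12.6 in knockouts (0.44, SE 0.10, adjusted p = 0.261). The lowest knockout was a little under the highest heterozygote. The pseudogene Gm12338 had 0.42, Rtn4rl1 0.28, Doc2b 0.19, Inpp5k 0.13, Crk 0.093 and Ovca2 -0.12, with adjusted p of 0.597 or above. The distance at which the other called genes lay was 7.82 Mb for Slfn9, 8.13 Mb for AA465934 and 40.66 Mb, on the other side, for Fam196b. The floxed chromosome and its flanking sequence cannot be told apart from the loss of Hic1 here.

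**Figure D4:**
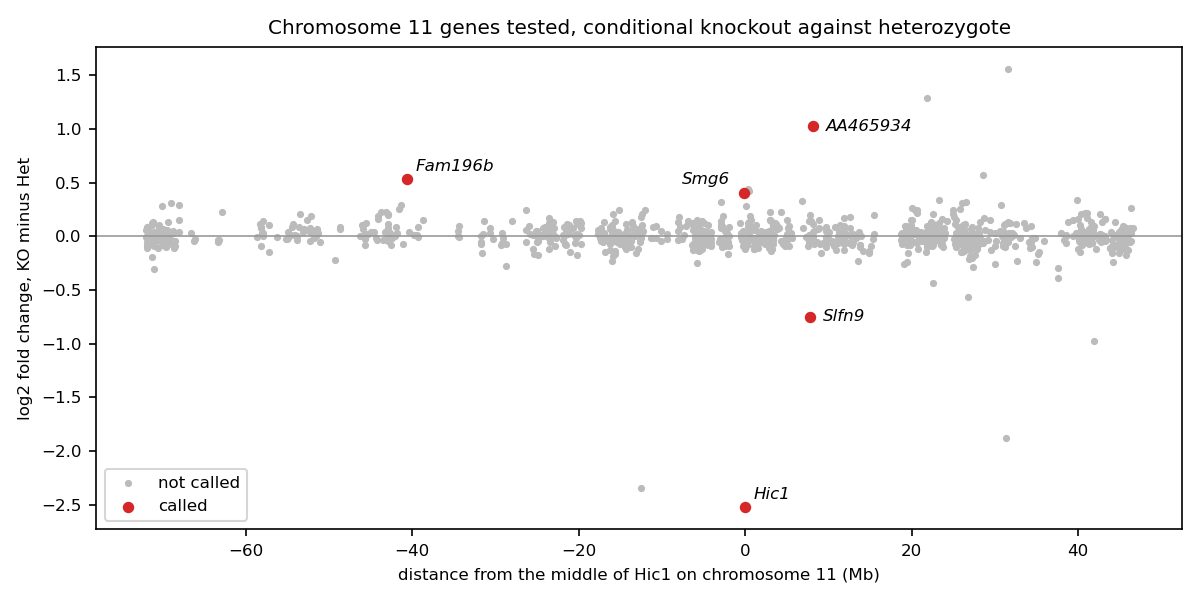
Log2 fold change of knockout minus heterozygote (vertical axis) for the 1054 chromosome 11 genes tested, by the distance of the gene's midpoint from that of Hic1 in Mb (horizontal axis). Called genes are red and named; 1 of them, Smg6, adjoins Hic1, and 2 lie within 8.13 Mb of it on the same side.

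Limb gene lists were described next, 37 lists with 487 distinct tested members, of which 2 were called (Smg6 and Frzb, named above). An unadjusted limma p under 0.05 was reached by 40 (8.21%), where 4.63% of all genes reached it. The lists were chosen with earlier results of these data known, and they include genes near Hic1. The higher share is therefore no evidence about limb genes. The list medians ran from -0.15 to 0.18 beside 0.0023 for all genes, and 35 of the 37 lists held 0 called members. Of all genes tested, 51.1% were above 0. Values below for members other than Frzb and Smg6 are given as values and not as changes.

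Skeletal and tendon lists held no called member. In cartilage, 14 of 18 members were below 0, with a median of -0.15 and 0 called. Sox9, the master factor of the cartilage lineage, was 30.5 to 49.5 FPKM in heterozygotes and 22.7 to 46.9, median 28.6, in knockouts (log2 fold change -0.39, adjusted p = 0.930), and knockout 4 was the high one. The tendon list had 7 of 12 above 0 and a median of 0.046. Small leucine-rich proteoglycans, collagen-binding matrix proteins, had 8 of 12 above 0 with a median of 0.13, beside -0.34 for heterozygote minus control and -0.25 for knockout minus control. Fmod, the tendon proteoglycan fibromodulin, was 19.4 to 31.2 FPKM in heterozygotes and 25.7 to 30.7 in knockouts.

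Among connective tissue genes, Osr2, a factor of limb connective tissue, was 17.6 to 27.6 FPKM in heterozygotes and 24.9 to 33.6 in knockouts (0.31, adjusted p = 0.747). Meox1, a homeobox factor, was 7.69 to 14.1 and 4.85 to 8.76 (-0.56, adjusted p = 0.203), and 12.1 on average in the controls. The fibroblast list had 5 of 18 above 0 and a median of -0.032. Of the matrix genes, Sned1 was 12.6 to 21.3 FPKM and 19.7 to 26.7 (0.44), Fbln2, a fibulin of elastic fibres, 42.9 to 57.7 and 56.0 to 74.6 (0.30), and Loxl1, a crosslinking enzyme of elastin, 17.2 to 28.4 and 25.2 to 34.7 (0.31). Their groups overlapped, and their adjusted p was 0.747 to 0.922. Other matrix genes were lower, among them Emilin1 (-0.20), Egfl6 (-0.31), Mfap5 (-0.35) and Matn4 (-0.39), each with adjusted p = 0.930. The elastic fibre list had 9 members above 0 and 9 below, with a median of -6.4e-04. The EGF-repeat matrix list had 6 above and 5 below, with a median of 0.011.

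The Wnt antagonist list held the called gene Frzb among 18 tested, 7 above 0 and 11 below, with a median of -0.023. The other pathway lists had 0 called members. Of these, BMP and TGF-beta had a median of -0.028, Hedgehog -0.063, FGF -0.058, Notch 0.086 and retinoic acid 0.011. Crabp1, a carrier of retinoic acid, was 232 to 306 FPKM in heterozygotes and 269 to 343 in knockouts (0.26, adjusted p = 0.847). Of the genes reported in the literature as direct targets of HIC1, 12 of 18 were above 0 with a median of 0.056 and 0 called. Ackr3, a chemokine scavenger in that list, was 29.6 to 38.9 FPKM and 33.9 to 44.5 (0.20), Cxcl14, a chemokine, 238 to 324 and 284 to 414 (0.22), and E2f1 13.1 to 16.3 and 11.5 to 14.1 (-0.16), all with adjusted p = 0.930. Hic2, the paralogue of Hic1, was 7.00 ± 0.999 FPKM in heterozygotes and 6.66 ± 0.544 in knockouts (adjusted p = 0.940).

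Neural lists had the lowest adjusted p among uncalled list members. Uchl1, a ubiquitin hydrolase abundant in neurons, was 30.5 to 42.6 FPKM in heterozygotes and 24.8 to 30.4 in knockouts, without overlap (-0.38, SE 0.074, adjusted p = 0.0869). Nefm, a neurofilament subunit, was 2.42 to 4.45 and 1.72 to 2.54 (-0.38, adjusted p = 0.538), and the small GTPase Rit2 1.06 to 2.45 and 0.454 to 1.73 (-0.47, adjusted p = 0.926). Of the 9 neuronal genes tested 6 were below 0 and 3 above, Prph at 0.53, Stmn2 at 0.11 and Gap43 at 0.042, each with adjusted p of 0.930 or above. An unadjusted limma p under 0.05 was reached by 3, all lower, where 4.63% of all genes reached it. The summed level of the list was 86.3 to 102 FPKM in heterozygotes and 78.9 to 91.2 in knockouts. Among the neurotrophic ligands and receptors 4 of 14 had an unadjusted p under 0.05, all higher, beside the same 4.63%. Gfra1, the coreceptor of GDNF, was 8.56 to 17.9 FPKM and 10.3 to 27.7 (0.60, adjusted p = 0.771), Gfra4 6.35 to 8.13 and 7.58 to 10.6 (0.27), Ngfr 25.7 to 31.9 and 28.4 to 40.3 (0.24) and Gdnf 0.761 to 1.04 and 0.943 to 1.45 (0.21).

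Lists for other cell types held 0 called members, and in several most members had the same sign, where 51.1% of all genes tested were above 0. Members of a list can rise and fall together between libraries, so they are not separate observations. Of 21 contractile muscle genes 20 were above 0, with a median of 0.13 beside -0.19 for heterozygote minus control and -0.082 for knockout minus control. Their summed FPKM overlapped, at 1319 to 2732 in heterozygotes and 920.2 to 2874 in knockouts. Epidermal genes were above 0 in 13 of 15, with a median of 0.18, and erythroid genes in 8 of 8, with 0.094, while cell cycle genes were below 0 in 18 of 20, with -0.049. Macrophage genes were above 0 in 10 of 12 and endothelial genes in 9 of 13, with medians of 0.061 and 0.029. Within the OB libraries the medians were 0.23 for contractile muscle, 0.40 for epidermis, 0.26 for tendon, 0.28 for proteoglycans and -0.11 for cell cycle genes. The erythroid median was 0.0098 there, below its 0.094 in the full comparison, and the cartilage median was -0.15 in both. The column letters and the first principal component stand beside these lists, and their part in the medians was not tested.

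**Figure D5:**
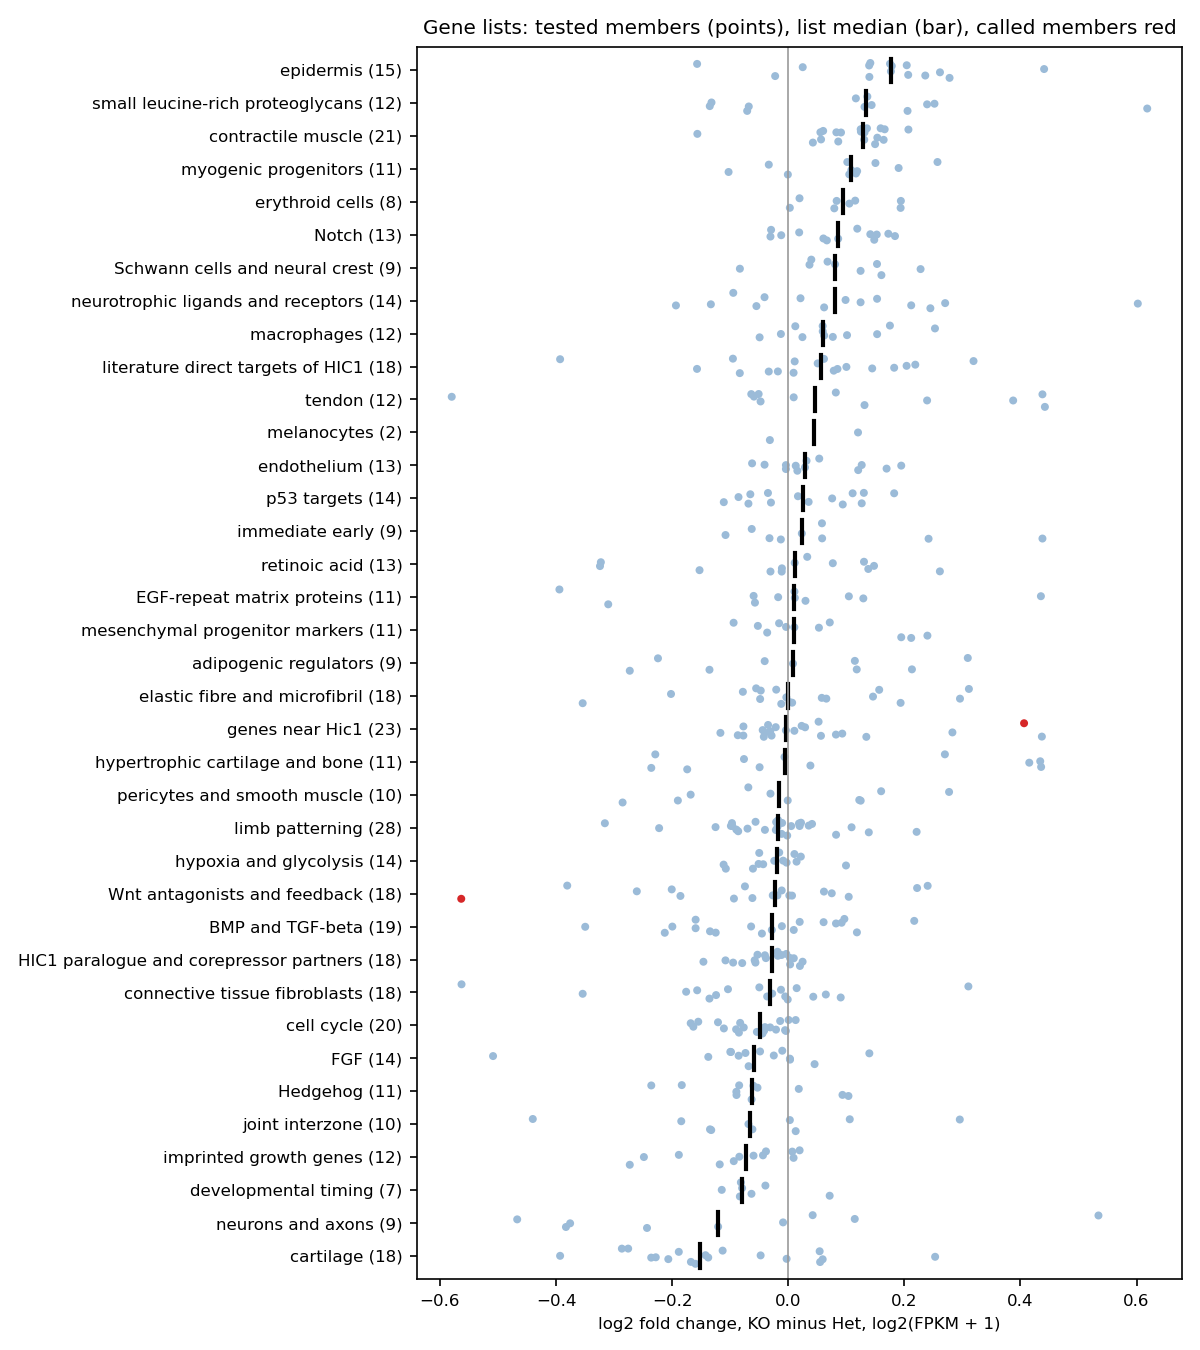
Log2 fold change of knockout minus heterozygote (horizontal axis) for the tested members of each of the 37 lists (vertical axis, number tested in brackets), with the list median as a black bar and called members in red. Medians lie between -0.15 and 0.18, and only Smg6 and Frzb are red.

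Genes just short of the call are given as values. Cml1 was 1.31 to 1.96 FPKM in heterozygotes and 2.33 to 2.99 in knockouts (0.45, adjusted p = 0.0515), with the controls at 2.45 on average, and Lrrc75b was 1.00 to 1.71 and 1.72 to 3.84 (0.74, adjusted p = 0.0515). Traf5, an adaptor of TNF receptors, was 4.58 to 5.15 and 5.10 to 7.78 (0.37, adjusted p = 0.0944). On the lower side Pou3f3, a POU factor, was 2.38 to 2.64 and 1.29 to 2.05 (-0.44, adjusted p = 0.0884), with the controls at 1.72, nearer to the knockouts than to the heterozygotes. Adprh was 71.2 to 74.6 and 57.7 to 71.3 (-0.21, adjusted p = 0.117), and Klhdc10, Hlx and Golm1 had -0.20, -0.36 and -0.16 with adjusted p of 0.220 to 0.379. With Uchl1 and Meox1 these are 3 higher and 7 lower genes, the smallest p that fill each direction to 10 beside its called genes, with predicted genes left out. Of the 10, 8 had the same sign in the conventional libraries, where 40.8% of the 12557 genes tested in both strategies did, and 0 were called there. For Traf5, Golm1, Adprh and Hlx the conventional direction rested on knockout 1 (8.05, 16.9, 117 and 13.7 FPKM), the library that stood apart.

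Separation of the libraries was counted over all genes as well. In 44 genes (0.341%) the knockout and heterozygote libraries did not overlap, 27 with all knockouts above (0.209%) and 17 with all below (0.132%), and 9 of the 10 called genes were among them. How many genes would separate with unrelated labels in groups of these sizes was not tested, so separation alone is not a result. The sex of the libraries did not follow the groups, since Xist was above 100 FPKM in 1 of 5 heterozygotes and 2 of 7 knockouts.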

How the data were processed

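PolyA RNA of E13.5 mouse forelimbs was measured in 26 libraries, of which the 12 with Cre in the conditional table were compared. The authors deposited FPKM, per the file headers. The tools named in the submitters' processing notes are Cufflinks, TopHat2, Bowtie2 and bcl2fastq, with build mm10, and versions, strand setting and annotation are not given in the sources used here. Read counts are not given, so depth is unknown and no counting interval was made. The 24340 genes of each of the 2 tables were taken by symbol, and 27 symbols turned into dates were restored from the other table. Positions come from GENCODE M21, and promoters from RefSeq (GRCm38.p6).

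Genes averaging 1 FPKM or more were tested with limma 3.58.1 in R 4.3.3 on log2(FPKM + 1), with control, heterozygote and knockout in 1 fit with a mean trend, no block, and Benjamini-Hochberg adjustment over all genes tested. The step difference is (knockout minus heterozygote) minus (heterozygote minus control). The conventional table was fitted alone. Its replicate numbers pair the samples (same-number correlations of 0.244 to 0.717), and the block changed no count of calls there. It raised the count of genes at an unadjusted limma p under 0.05 from 583 to 1186. The conventional values are nonetheless given from the fit without the block, as for the conditional libraries. Figures were drawn with Python 3.11.15. The code was tested on simulated data.

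Named genes are Hic1, all called genes, uncalled genes of smallest p where a direction had fewer than 10 called, to make 10, and up to 5 members of each list by smallest p. The members and lists were chosen with earlier results of these data known. Alternatives were the groups fitted, the pseudocount (0.1), the filter (none or 5 FPKM), median-ratio scaling, array weights, robust moderation, a replicate block, the column letters, and each library left out.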

Additional observations from a re-analysis of the deposited data

Results flagged for a closer look

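Among 268 groups of 5 or 7 libraries checked for a library far from the others, 22 held one, where chance gives about 1 in 20. AA465934 was 178.7 FPKM in knockout 6, with the other knockouts at 120.8 to 141.8. Knockout 4 was high for Tbx5 (70.6 FPKM), Sox9 (46.9), Mta1 (70.0), Smarca4 (74.1), Mcm3 (68.4) and Kit (7.66). Heterozygote 3 was low for Fbln2 (42.9), Loxl1 (17.2) and Npnt (18.1) and high for Aldh1a3 (5.29) and Fgf8 (5.00). Heterozygote 2 was high for Podn (2.90), Jag2 (15.4), Nefm (4.45) and Trp63 (24.5), and heterozygote 1 was low for Rspo3 (11.2) and high for Lgr5 (6.56). Heterozygote 4 was high for Gfra4 (8.13), knockout 1 low for Ccne1 (22.0), knockout 6 low for Egfl6 (15.3) and knockout 2 high for Hba-a1 (924.6), a globin with a near-identical copy that can share its reads. Knockout 4 and heterozygote 3 also had the 2 highest scores on the first principal component, 19.8 and 24.6.

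In 8 named genes every knockout lay on one side of the heterozygote mean in the conditional table and on the other side in the conventional table, or the reverse. The difference between the strategies was not tested. Log2 fold changes of knockout minus heterozygote, conventional then conditional, were -1.05 and 0.39 for Chodl, -0.43 and 0.24 for Cd55, 0.46 and -0.51 for Fgf8, 0.24 and -0.09 for Etv5, 0.34 and -0.16 for E2f1, -0.18 and 0.13 for Sesn1, 0.37 and -0.11 for Hk2, and -0.40 and 0.12 for Mitf. Without conventional knockout 1, the library that stood apart, the conventional values were -0.54 for Chodl, -0.23 for Cd55, 0.44 for Fgf8, 0.068 for Etv5, 0.14 for E2f1, -0.054 for Sesn1, 0.35 for Hk2 and -0.15 for Mitf.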

How the results depend on the processing

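The 10 calls became 5 with a mean of at least 5 FPKM (9875 genes tested, with Slfn9, Frzb, Slc14a2 and Fam196b below that filter and C1qtnf7 no longer called), 29 with array weights (20 higher, 9 lower, all 10 included), and 4 in the OB libraries alone, an alternative chosen after seeing the data (3 of the 10 included, 5 knockouts and 3 heterozygotes, so fewer samples). The other settings gave 7 to 12, and leaving out 1 library 5 to 16. Hic1, AA465934 and Sst were called in all 22 alternatives, Pcp4 in 21 of 22 and Slfn9 in 20 of 21 (not in OB alone). Smg6 was called in 17 of 22, Frzb in 13 of 21, Slc14a2 in 11 of 21, Fam196b in 10 of 21 and C1qtnf7 in 6 of 22. The 5 FPKM filter used the mean over all conditional libraries, knockouts included, so it depended on the contrast itself. Sst passed it only through its knockouts (mean 9.81 FPKM, heterozygotes 2.52), and so did C1qtnf7. Slfn9 and Frzb fell below it through their low knockouts (3.11 and 3.32 FPKM, heterozygotes 5.94 and 5.40). That setting is therefore no separate support for Sst. The 3 step differences became 1 without a filter and 0 with the column letters, and 0 to 3 when 1 library was left out. The conventional count of 1 became 2 without knockout 2 and ranged from 1 to 2. The 2 called list members became 1 without a filter, 1 at 5 FPKM, 4 with array weights, 1 with the column letters and 0 in OB alone, and 0 to 2 without 1 library. Causes were not tested. Hic1 in the knockout was 14.4% to 16.2% of the heterozygote when 1 library was left out. The 10 called genes kept their direction in 216 of 216 alternatives, 164 of them past the threshold. The alternatives reuse all or part of the same libraries, so a kept direction is not separate support. Of 2701 alternatives for the 124 uncalled genes, 23 passed the threshold and 3 reversed, Thy1 at -0.041 without heterozygote 3 (-0.041 to 0.44 over the libraries left out) and Kit at 0.02 with the replicate block and 0.0048 without knockout 6 (-0.095 to 0.0048).

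Numbers shared by heterozygote and knockout had correlations of 0.0183 to 0.366, not all over 0.1, so they were not taken as pairs. The replicate block gave 8 calls for knockout minus heterozygote, 7 of them among the 10 (without Slc14a2, Fam196b and C1qtnf7, adjusted p 0.0832, 0.332 and 0.425), 2 step differences, 2 list members and 1 conventional call. Unknown depth limits what low FPKM can show.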

Other observations

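The 35 genes that did not overlap between knockout and heterozygote libraries and were not called were 21 higher and 14 lower, and 4 of them are given here, chosen after their values were seen. L1cam, a neural adhesion molecule, was 1.60 to 2.14 FPKM in heterozygotes and 2.32 to 2.78 in knockouts (log2 fold change 0.31, adjusted p = 0.356), and Ephb1, an Eph receptor, 1.80 to 3.03 and 3.08 to 4.73 (0.36, adjusted p = 0.524). Has2, which makes hyaluronan, was 8.78 to 10.1 and 7.12 to 8.49 (-0.22, adjusted p = 0.524). Gstt1, a glutathione transferase, was 8.53 to 12.7 and 13.0 to 17.5 (0.48, adjusted p = 0.261). In the conventional table the log2 fold changes of these 4 genes were 0.11, 0.31, -0.70 and 0.12. Others of the 35 had the opposite sign there, among them Srsf9 (conditional -0.15, conventional 0.21), Socs2 (0.21 and -0.32) and Trnp1 (0.26 and -0.52). The shared signs of the 4 are therefore no support for them.

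Aqp1, a water channel of endothelium and connective tissue, was 10.5 to 24.7 FPKM in heterozygotes and 22.0 to 35.9 in knockouts (0.79, SE 0.21, adjusted p = 0.524), and it was called with array weights (adjusted p = 0.0256) and with the column letters as a term (0.0187). Ccdc3, a secreted protein, was 2.06 to 6.58 and 5.28 to 10.4 (0.85, SE 0.22, adjusted p = 0.476), with 0.0210 and 0.0584 under those 2 settings. With robust moderation of the limma fit neither Aqp1 nor Ccdc3 was called (adjusted p = 0.733 and 0.539). The conventional log2 fold changes of Aqp1 and Ccdc3 were 0.48 and 0.30. S100a4 had 0.83 (SE 0.25, limma adjusted p = 0.747), with 0.0240 under array weights and 0.0730 with the column letters. Its conventional log2 fold change was -0.077.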
